A study of Mus musculus with 24 samples.

Results

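Repeat-rich peaks are the accessible regions of this study that consist mostly of repeated DNA. A peak was called repeat-rich when 70% or more of its bases were soft-masked, that is, written in lower case as interspersed or tandem repeats in the mm10 (GRCm38) reference sequence. The rule uses the reference alone and no measured value. It selected 4881 of the 546352 distinct peak intervals in 11 deposited lists, and merging members that touch each other left 2125 loci. In the whole genome 36.39% of bases are soft-masked, against a mean of 10.33% to 15.36% of the bases of a peak in the 11 lists.

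The peaks came from ATAC-seq, which marks open chromatin by inserting adapters with the Tn5 transposase, in 24 libraries of sorted bone marrow cells from C57BL/6 mice, with 1 list per group. Daxx-WT mice carried Daxx +/+ and Daxx-KO mice Daxx F/F, in which exons 2 to 7 are flanked by LoxP sites, and the controls carried Cre +/- as well. Samples with no time in the label, 2 libraries per genotype each, were long-term stem cells of the blood (LT-HSCs), CMPs (progenitors common to the myeloid lineages) and GMPs (their descendants restricted to granulocytes and monocytes), and the methods of the study place them 3 weeks after tamoxifen in mice with the ubiquitous RosaCreERT2. A second LT-HSC set, taken 3 days post induction (d.p.i.), held 3 libraries from Daxx-KO and 2 from Daxx-WT mice, whose RosaCreERT2 controls are labelled Daxx +/+, although a legend of the study also lists a Daxx +/F control. The KLS fraction (c-Kit+ Lin- Sca-1+), 3 weeks post induction (w.p.i.), comprised 3 Daxx-KO libraries, 2 Daxx-WT and 2 DKO. The DKO mice were Daxx F/F Pu.1 F/F, bred according to the methods from a line with the interferon-responsive Mx1Cre, while the labels name only Cre +/-. The methods describe injected polyinosinic:polycytidylic acid (pI:pC) as the inducer in Mx1Cre mice. They also assign the KLS cells sorted for RNA at 3 w.p.i. to Mx1Cre mice. The labels give no age, and the methods describe mice of both sexes treated at 5 to 11 weeks. Different induction, sorting, read layout and peak lists separate the populations, so the genotype contrast was read within each population.

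More of the mouse genome derives from transposable elements and other repeats than from coding sequence, and most copies are held in closed chromatin by histone and DNA methylation. Daxx, together with Atrx, deposits the histone variant H3.3 at repeats such as endogenous retroviruses, telomeres and pericentromeric DNA. Long terminal repeats of endogenous retroviruses carry binding sites for transcription factors, and Pu.1 (encoded by Spi1) is a factor that drives myeloid fate and binds ETS-type sequences.

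Repeated sequence recurred among the repeat-rich loci, and the commonest shared string of 16 letters, called word 1, was CCAAGTTCCTGCTTCC. Word 1 or its reverse complement was present in 248 of 2125 loci (11.67%). The 5 windows of 100 bases that follow are printed because they lie in the recurrent Daxx-KO loci with word 1 and in the KLS sites that rose most in Daxx-KO cells. Capitals mark word 1, letters come from the RefSeq copy of GRCm38.p6, and all are on the plus strand.
Near Gm22288, chrX:50410517-50410616: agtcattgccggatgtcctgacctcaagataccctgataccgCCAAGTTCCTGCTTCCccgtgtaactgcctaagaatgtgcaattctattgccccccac
Near Gm25096, chr1:35234130-35234229: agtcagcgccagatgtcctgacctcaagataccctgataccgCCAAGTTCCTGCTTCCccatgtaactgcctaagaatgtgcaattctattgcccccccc
Near Gm23439, chr2:107955862-107955961: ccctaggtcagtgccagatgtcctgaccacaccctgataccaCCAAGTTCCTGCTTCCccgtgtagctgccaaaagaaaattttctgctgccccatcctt
Near Gm18252, chr10:34699519-34699618: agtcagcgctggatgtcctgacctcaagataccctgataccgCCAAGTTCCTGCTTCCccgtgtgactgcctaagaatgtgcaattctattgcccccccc
Near AC122453.2, chr17:82379497-82379596: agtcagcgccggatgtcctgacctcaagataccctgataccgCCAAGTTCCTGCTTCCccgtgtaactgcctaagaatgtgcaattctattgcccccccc
The likeness reaches beyond the word. Over all 248 loci a median of 66.67% (range 34.52 to 86.9) of the 84 flanking bases equalled the commonest base at their position. No repeat family is named for word 1, because the annotation of repeat classes was not used here.

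The second most common word marked a different and far more numerous repeat. Word 2, AACCACATGGTGGCTC, was in 143 loci and had 52078 copies in the genome, against 1197 copies of word 1. The window shown, on the minus strand, holds the word 2 copy of a locus with a peak in all 11 lists and runs past the end of that locus, which touches an exon near Mrps21, which encodes a protein of the mitochondrial ribosome.
Near Mrps21, chr3:95862442-95862541: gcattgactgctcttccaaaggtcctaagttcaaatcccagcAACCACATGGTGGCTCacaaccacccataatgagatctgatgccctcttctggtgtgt
Tandem repeats formed a smaller class, and 123 loci (5.788%) had more than 30% of their bases in repeats of units of 1 to 6 bases. Below that limit, with 26.6% and 25.33% of bases in such repeats, lay the fully masked loci near 2700054A10Rik and Gm13717 that were open in every list. Both hold stretches of the unit GTGCT, in capitals in these plus-strand windows of 60 bases.
Near 2700054A10Rik, chr17:13551902-13551961: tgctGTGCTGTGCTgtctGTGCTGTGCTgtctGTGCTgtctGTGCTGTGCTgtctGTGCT
Near Gm13717, chr6:29748363-29748422: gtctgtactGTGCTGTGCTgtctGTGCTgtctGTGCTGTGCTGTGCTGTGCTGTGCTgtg

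Repeat-rich peaks were rare in every population and were found most often in the myeloid progenitors. They made up 1.495% of peaks in Daxx-WT GMPs (976 of 65306), 1.237% in Daxx-WT CMPs (817 of 66070) and 0.7012% in Daxx-WT LT-HSCs (459 of 65455). In 3 d.p.i. LT-HSCs the Daxx-WT share was 0.5359% (198 of 36949), and in Daxx-WT KLS cells it was 0.3211% (107 of 33325). The 95% Wilson intervals of these 5 shares did not overlap, but they cover counting error only, and the 3 populations without a time label had lists of another kind, with positions and no values. In all 11 lists together, 0.08702% to 0.4226% of peaks were at least 90% masked.

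Daxx loss did not move the share of repeat-rich peaks in a single direction. After Daxx loss the share was higher in LT-HSCs (0.9197% against 0.7012%), in 3 d.p.i. LT-HSCs (0.6294% against 0.5359%) and in KLS cells (0.4989% against 0.3211%). It was lower in CMPs (1.036% against 1.237%) and GMPs (1.304% against 1.495%). The mean difference over the 5 populations was 0.0198 percentage points (SD 0.2016, n = 5, two-sided exact sign-flip permutation test, p = 0.8125, where 5 populations cannot give a p below 0.0625). In 5 of 5 populations the longer list had the larger share, so the share moved with the length of the list. In the lists as deposited, list length and genotype cannot be told apart within a population. With the longer list cut to the length of the shorter by fold enrichment, the difference became −0.0325 points in 3 d.p.i. LT-HSCs and 0.063 points in KLS cells, the populations whose lists carry that value. DKO KLS cells had 82 repeat-rich peaks of 22156 (0.3701%), a share whose interval (0.2983 to 0.4591) included that of Daxx-WT KLS cells.

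**Figure D1:**
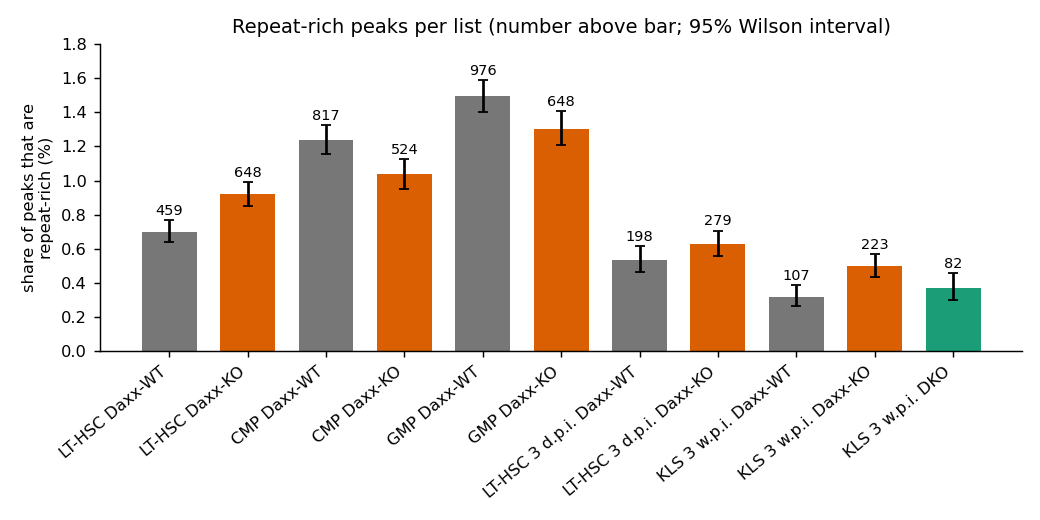
Share of the peaks of each list that were repeat-rich (vertical axis, percent), for Daxx-WT (grey), Daxx-KO (orange) and DKO (green), with the number of such peaks above each bar and 95% Wilson intervals as error bars. GMPs reach the highest shares (976 and 648 peaks), and Daxx-KO lies above Daxx-WT in both LT-HSC sets and in KLS cells but below it in CMPs and GMPs.

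Repeat-rich peaks were found in the Daxx-KO list alone more often than other peaks of the same width, in every population. A peak was alone when no peak of the other genotype shared at least 1 bp with it, and peaks with less than 70% masking were weighted to the widths of the repeat-rich peaks, which were narrower (median 384 to 518 bp against 612 to 947 bp across lists). In LT-HSCs 44.44% of the repeat-rich Daxx-KO peaks (288 of 648) had no Daxx-WT partner, against 30.78% of width-matched peaks and 13.9% of all peaks. In CMPs the shares were 22.71% (119 of 524), 10.64% and 6.26%, and in GMPs 20.22% (131 of 648), 7.548% and 4.55%. At 3 d.p.i. 56.99% of repeat-rich LT-HSC peaks (159 of 279) were alone in Daxx-KO cells, against 44.71% of width-matched and 24.1% of all peaks. In KLS cells these shares were 68.61% (153 of 223), 55.81% and 31.8%. The excess over width-matched peaks lay between 12.07 and 13.66 points and averaged 12.7 points (SD 0.6157, positive in 5 of 5 populations, exact sign-flip permutation test, p = 0.0625, the smallest p that 5 populations allow). The lists of the 5 populations share loci, so the populations are not independent, and neither the SD nor the p-value allows for this.

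Repeat-rich peaks were also found in the Daxx-WT list alone more often than width-matched peaks, by a smaller margin. The shares were 19.17% against 17.29% in LT-HSCs (6.78% of all peaks), 50.31% against 47.04% in CMPs (28.5%), 50.82% against 45.74% in GMPs (27.6%), 25.25% against 19.1% in 3 d.p.i. LT-HSCs (8.68%) and 25.23% against 18.54% in KLS cells (8.06%). The mean excess was 4.612 points (SD 2.011, 5 of 5 populations, exact sign-flip permutation test, p = 0.0625). The Daxx-KO excess was the larger in 5 of 5 populations, by 6.114 to 11.78 points with a mean of 8.085 (SD 2.353, exact permutation p = 0.0625). With lists of equal length, available for 3 d.p.i. LT-HSCs and KLS cells, the excess averaged 16.66 points in Daxx-KO cells and −0.251 points in Daxx-WT cells. In the same 2 populations, matching on width and rank of fold enrichment gave 17.18 and 9.252 points, so the Daxx-WT excess depended on how list length and peak strength were handled.

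Repeat-rich peaks of DKO cells showed an excess of 12.45 points. Of 82 such peaks, 39 (47.56%) had no Daxx-WT partner, against 35.11% of width-matched and 21.4% of all DKO peaks. In the opposite direction 64 of 107 repeat-rich Daxx-WT peaks (59.81%) were missing from the DKO list, fewer than the 69.31% of width-matched peaks, with 48.4% of all peaks missing. The DKO list was the shortest of the series, and with both lists at its length 68.29% against 55.58% were alone in DKO cells and 54.9% against 54.26% in Daxx-WT cells. The Daxx-KO and DKO comparisons in KLS cells share the Daxx-WT list and are not independent.

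**Figure D2:**
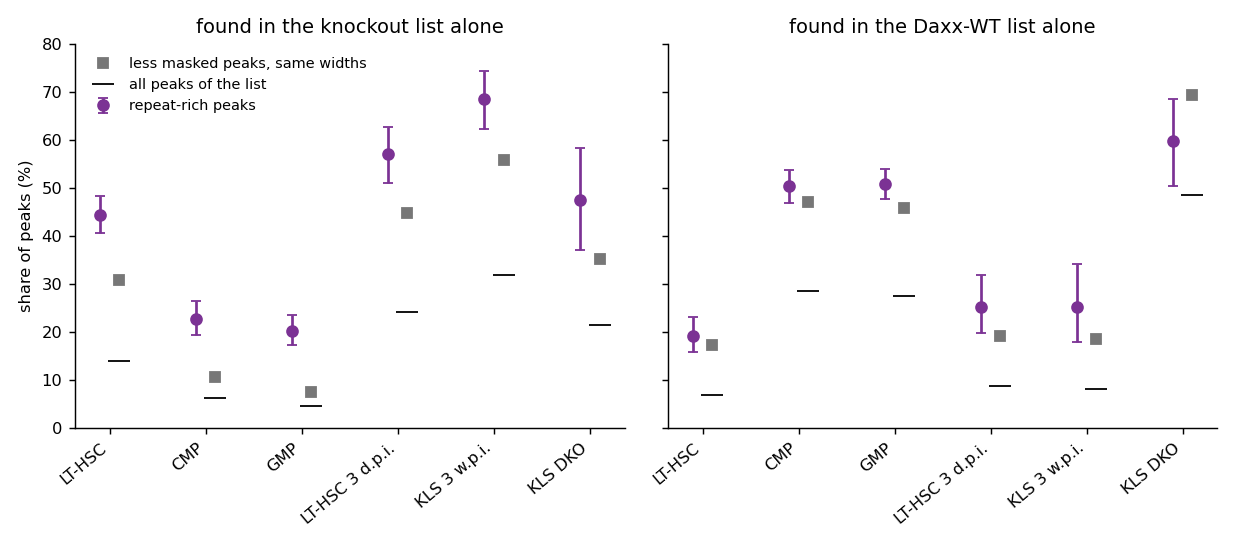
Share of peaks (vertical axis, percent) without a partner in the other genotype, for the knockout lists (left) and the Daxx-WT lists (right) of each population, as repeat-rich peaks (purple, 95% Wilson interval), less masked peaks of the same widths (grey squares) and all peaks (black lines). The purple points lie above the grey squares in all 6 knockout lists, by 12.07 to 13.66 points, and below in the Daxx-WT list against DKO (59.81% against 69.31%).

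The share of peaks alone in 1 genotype rose with the extent of masking in most comparisons, starting below the 70% limit. The Daxx-KO lists are given first. In LT-HSCs it was 13.1% for peaks with under 10% of bases masked, 25.12% at 50 to 70%, 43.33% at 70 to 90% and 47.12% above 90%. In GMPs it was 3.96%, 9.204%, 17.98% and 25.52% in the same classes. 3 d.p.i. LT-HSCs did not continue to rise above 90%, with 61.02% at 70 to 90% and 50% above, nor did KLS cells, with 68.67% and 68.42%. In the DKO list the share levelled from 50% masking on, at 51.87%, 46.43% and 50%. Against Daxx-KO, the Daxx-WT lists rose too, from the least to the most masked class. They went from 25.45% to 54.86% in CMPs, 23.87% to 51.45% in GMPs and 7.403% to 34.48% in KLS cells. Against DKO, the Daxx-WT KLS share went from 42.29% to 75.39% at 50 to 70% masking. It then fell to 64.1% at 70 to 90% and 48.28% above 90%. These classes were not matched for width. Just outside the limit (65 to 70% masked) and just inside it (70 to 75%), the Daxx-KO-alone shares were 29.86% and 40.96% in LT-HSCs, 15.34% and 13.04% in CMPs, 13.56% and 11.85% in GMPs, 50% and 68.85% at 3 d.p.i., and 67.9% and 65.15% in KLS cells.

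**Figure D3:**
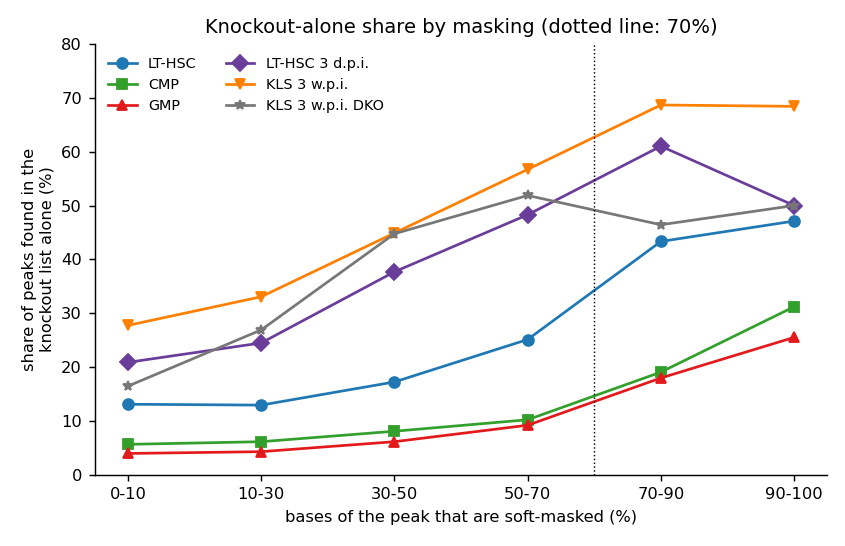
Share of the peaks of each knockout list without a Daxx-WT partner (vertical axis, percent) in 6 classes of soft-masked bases (horizontal axis, percent), with 1 line per population and the 70% limit dotted. In KLS cells the share goes from 27.74% in the least masked class to 68.42% in the most masked, and in CMPs from 5.651% to 31.21%.

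Repeated sequence can be hard to place with short reads, and this moved with the result. On average 60.47% to 81.45% of 50-base strings sampled from the repeat-rich peaks of a list occurred once in the genome, against 98.1% to 98.67% in width-matched peaks. Restricted to members whose 10 sampled strings all occurred once, the Daxx-KO-alone excess stayed positive in 5 of 5 populations but averaged 5.63 points. It was 9.246 points in LT-HSCs and 14.98 at 3 d.p.i., and fell to 1.073 in CMPs, 0.8329 in GMPs and 2.017 in KLS cells. How reads with several possible positions were handled is not given in the sources used here, and its part in the result was not tested.

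Single loci were rarely shared by all populations. A peak lay on 28 of 2125 repeat-rich loci (1.318%) in all 11 lists, against 14.97% of all 100442 merged loci, and 637 (29.98%) were open in 1 list, against 18.28%. These shares were not matched for width, and repeat-rich peaks were narrower than others. The 5 most masked loci of the 28 included those near 2700054A10Rik (chr17:13550616-13553247, in an intron) and Gm13717 (chr6:29747633-29749152, in an intron), which hold the GTGCT unit shown above and were repeat-rich in 11 of 11 lists. The others lay near Mrps21 (chr3:95861284-95862519), Gm11168 (chr9:3001946-3002553) and Gm13710 (chr2:84503978-84505480). Near Gm11168, 10% of the sampled 50-base strings were unique, with a median of 6 copies.

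Loci that recurred in Daxx-KO lists and were missing from every Daxx-WT list were scarce but made up a larger share of repeat-rich loci than of all loci. There were 15 with peaks in at least 3 of the 5 Daxx-KO lists and in none of the 5 Daxx-WT lists, or 0.7059% of repeat-rich loci against 0.135% of all loci. In the opposite direction, 3 loci had peaks in at least 3 Daxx-WT lists and in no Daxx-KO or DKO list, or 0.1412% against 0.138%. Neither comparison with all loci was matched for width. The locus near Gm22288 (chrX:50410178-50410861, between genes, 94.3% masked) was repeat-rich in all 5 Daxx-KO lists, in no Daxx-WT list and not in DKO cells, and it holds word 1. The locus near Gm11949 (chr11:3601936-3603219) had a peak in the same 5 lists, although it was repeat-rich in 1 of them. The locus near Gm25096 (chr1:35233951-35234514, 98.22% masked), also with word 1, was open in 4 Daxx-KO lists, all but KLS cells. The others lay 0.955 kb from the start of Pink1, a kinase of mitochondrial quality control (chr4:138327250-138328308), and near 1700128A07Rik (chr14:106457376-106457832). At the Pink1 locus 20% of sampled 50-base strings were unique, with a median of 63 copies. All 3 recurrent Daxx-WT loci came from the lists without a time label, in introns near Tubb3, a neuronal tubulin (chr8:123416007-123416294), and Rtn2, a reticulon (chr7:19284835-19285106), and in an exon at Gm24049 (chr2:27401574-27402004).

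Word 1 was, of the 6 commonest words, the one whose loci leaned to Daxx-KO lists. The words were ranked by the number of loci that held them, with no use of genotype. Of the 248 loci with word 1, 67 had a peak in a Daxx-KO and no Daxx-WT list, and 27 the reverse, whereas among all 2125 repeat-rich loci these numbers were 313 and 508. For words 2 to 6 there were 5 to 8 loci in the first class and 15 to 34 in the second. Counted over all 1197 copies in the genome, so without the 70% rule, peaks covered 62 copies in Daxx-KO LT-HSCs against 40 in Daxx-WT, 164 against 152 in CMPs and 189 against 147 in GMPs. At 3 d.p.i. they covered 45 against 17, and in KLS cells 38 against 4. The number was higher in 5 of 5 populations, including CMPs and GMPs, where the Daxx-KO list was shorter (50590 against 66070 peaks and 49677 against 65306). For word 2 the numbers followed list length, with 697 against 638 copies in LT-HSCs but 242 against 364 in CMPs and 219 against 364 in GMPs. Peaks of DKO KLS cells covered 1 copy of word 1 and 102 copies of word 2, and the DKO list covered 0.679% of the genome against 1.103% for Daxx-WT and 1.533% for Daxx-KO KLS cells.

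Copies of word 1 were open most often in the myeloid progenitors. A peak of some list covered 255 of the 1197 copies (21.3%), 186 in a Daxx-WT list and 228 in a Daxx-KO list. In GMPs the share was 12.28% in Daxx-WT and 15.79% in Daxx-KO cells, while peaks covered 1.665% and 1.296% of the genome. In the same lists 0.699% and 0.4205% of the copies of word 2 lay in peaks. Word 6, CCAGAAGAGGGCACCA with 2047 copies, came closest, at 7.426% and 4.25%, but in LT-HSCs without a time label more of its copies were open than of word 1 (7.67% against 3.342% in Daxx-WT and 9.575% against 5.18% in Daxx-KO cells). All 1197 copies were fully soft-masked, and 248 had another copy on the same strand within 10 kb. The loci with word 1 lay farther from genes than other repeat-rich loci (median 13.21 kb against 8.09 kb to the nearest transcription start site), and 73.79% were between genes. Fewer of their 50-base strings were unique (62.5% against 78.41%). Without the peaks that hold word 1 the Daxx-KO-alone excess averaged 8.451 points, positive in 5 of 5 populations (12.65 in LT-HSCs, 6.712 in CMPs, 5.198 in GMPs, 8.747 at 3 d.p.i. and 8.954 in KLS cells).

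**Figure D4:**
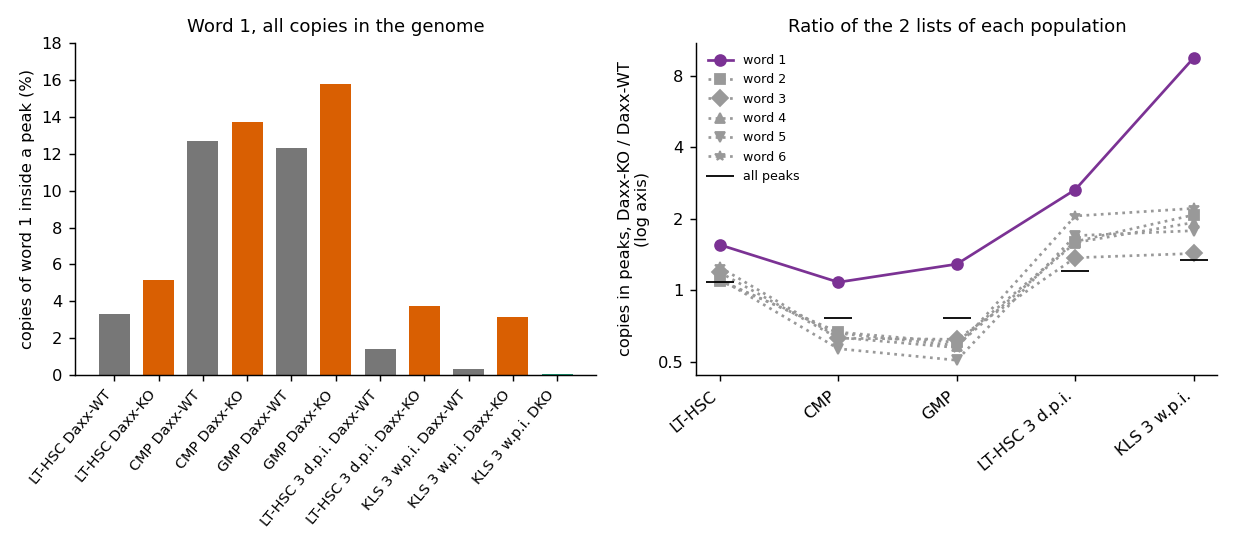
Left, share of the 1197 genome copies of word 1 inside a peak of each list (vertical axis, percent). Right, copies inside Daxx-KO peaks divided by copies inside Daxx-WT peaks for words 1 to 6 and, as black lines, the same ratio for all peaks (log axis): word 1 stays above 1 in CMPs and GMPs (164 against 152 and 189 against 147 copies), where the other words and the lists as a whole lie below 1.

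Repeat-rich peaks lay away from genes. Distal peaks, with no GENCODE M21 transcription start site within 1000 bp, made up 84.15% to 91.03% of them in the 11 lists, against 64.77% to 83.47% of width-matched peaks. The difference averaged 10.18 points (SD 3.702 over 11 lists that share loci, positive in 11 of 11) and ran from 6.454 in Daxx-KO LT-HSCs to 19.38 in DKO cells. Between 48.15% and 57.94% lay between genes, against 32.5% to 37.94% of width-matched peaks, and 4.198% to 8.537% touched an exon, against 18.17% to 33.98%. The median distance to the nearest start site was 6.329 to 10.63 kb. The distal share of repeat-rich peaks was close in both genotypes, at 88.67% in Daxx-WT and 88.89% in Daxx-KO LT-HSCs, 90.94% and 91.03% in CMPs, 90.78% and 89.51% in GMPs, 86.87% and 87.81% at 3 d.p.i., and 86.92% and 87.89% in KLS cells, all with overlapping Wilson intervals. The share between genes went from 57.94% to 49.78% in KLS cells, from 48.15% to 51.23% in LT-HSCs and from 52.25% to 56.64% in GMPs.

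Their sequence differed from that of other peaks beyond the repeats themselves. GC content was lower in all 11 lists (45.12% to 47.94% against 47.67% to 52.51% in width-matched peaks). The ratio of observed to expected CpG was also lower, at 0.1895 to 0.245 against 0.2551 to 0.3933. Within the 5 lists with a fold enrichment, where percentile 100 is the highest, repeat-rich peaks had mean rank percentiles of 36.03 to 38.4 against 30.97 to 33.01. In the central 200 bp, the Pu.1 sequence GAGGAAGT on either strand was present in 12.01% of repeat-rich peaks (586 of 4881, Wilson interval 11.12 to 12.95) and 7.725% of width-matched peaks. The interferon regulatory factor string AANNGAAA was in 28.13% against 21.35%, and the telomere-type string TTAGGGTT in 3.135% against 0.6968%. The core of CTCF sites, AGGGGGC, was rarer (3.278% against 8.95%), as was the AP-1 sequence TGANTCA (5.286% against 8.399%). The RUNX string TGTGGTTT (3.258% against 3.719%) and the GATA string AGATAAG (2.459% against 2.8%) had width-matched values within their Wilson intervals. A match describes letters and not binding. These motif shares pool the distinct peaks of all 11 lists and are matched on width alone. They therefore mix masking with the populations that gave the peaks. The 4881 repeat-rich intervals come from 2125 loci, so the same sequence was counted more than once and the Wilson intervals are too narrow.

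Genes of the silencing and sensing pathways had a repeat-rich peak as neighbour about as often as all genes. Of 31820 genes nearest to any peak, 1978 (6.216%) were nearest to a repeat-rich one. Among 17 retroelement silencing genes this held for 1 (5.882%), Atrx, the partner of Daxx in H3.3 deposition, and among 19 sensors of nucleic acids for 1 (5.263%), Ddx58, which encodes the RNA sensor RIG-I. None of 20 interferon-stimulated genes had one. Of 20 stem cell transcription factors, Erg and Etv6 did, both ETS factors needed in adult HSCs. Of 20 myeloid fate genes, 4 did: Mpo and Ctsg, enzymes of neutrophil granules, Ly6c2, a surface protein of monocytes, and S100a9, a calcium-binding protein of neutrophils. These are small numbers, and no test was made.

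The promoters of marker genes followed the sorted populations in part. All 5 stem cell markers had a promoter peak in both LT-HSC lists without a time label, and all 5 GMP markers in both GMP lists. Daxx-WT KLS cells and DKO KLS cells had 2 of 5 stem cell and 1 of 5 B cell markers, Daxx-KO KLS cells 4 and 3. The Daxx-KO list was also the longest KLS list (44694 peaks against 33325 in Daxx-WT and 22156 in DKO cells). GMP markers numbered 3 of 5 in each KLS list. B cell markers numbered 4 of 5 in both LT-HSC lists without a time label. Erythroid promoters were open for 1 of 4 markers in DKO KLS cells and 3 of 4 in both other KLS lists. Mature neutrophil promoters were open for 4 of 5 markers in DKO KLS cells and for 1 of 5 in both other KLS lists. Whether different cells in these gates take part in the KLS results was not tested. As a check of the labels, the site over the floxed part of Daxx fell from a mean of 71.18 to 9.923 scaled reads in Daxx-KO KLS cells (chr17:33913451-33914950). In DKO cells the Daxx site fell from 62.42 to 7.395, and a Spi1 site (chr2:91114801-91115800) from 44.59 to 3.4. The other Spi1 sites listed for DKO cells rose, for example from 115.2 to 292.8 at chr2:91086901-91089400.

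Quantitative values per library came from 3 deposited tables of sites with a difference between genotypes. There, sites at repeat-rich peaks were higher in the knockout more often than sites at less masked peaks. The repeat-rich peaks include those called in the same knockout libraries. Most listed sites were lower in Daxx-KO cells, and sites at repeat-rich peaks were not. In 3 d.p.i. LT-HSCs 88 listed sites shared at least 1 bp with a repeat-rich peak, and 74 (84.09%) had the higher mean of scaled reads, that is, reads at the site divided by a constant of the library, in Daxx-KO cells. This was so for 29.1% of all listed sites, 57.4% of listed sites at any peak and 57.8% of those at less masked peaks of matched width. In KLS cells 111 of 152 sites (73.03%) were higher in Daxx-KO cells, against 19.1%, 42.8% and 44.04%. In DKO KLS cells 160 of 252 (63.49%) were higher, against 72.1% of all listed sites, 38% at any peak and 41.46% at less masked peaks. The tables list sites chosen for their difference between the same libraries, so these are counts of direction with no test, and Daxx-KO and DKO KLS cells share their Daxx-WT libraries.

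Most sites were higher in the knockout also at peaks called in other libraries. The 6 lists without a time label include Daxx-KO lists, so a peak could still enter through the knockout. With their repeat-rich peaks, 68 of 78 sites (87.18%) were higher at 3 d.p.i. and 102 of 136 (75%) in Daxx-KO KLS cells. In DKO cells 130 of 211 (61.61%) were, below the 72.1% of all listed sites. At width-matched less masked peaks of these lists the shares were 58.2%, 43.85% and 39.94%. With repeat-rich peaks of the Daxx-WT list of the same cells, 15 of 24 (62.5%) were higher at 3 d.p.i. and 6 of 11 (54.55%) in Daxx-KO KLS cells, against 53.1% and 39.01% at width-matched less masked peaks. In DKO cells most of these sites were lower, with 18 of 41 (43.9%) higher and a median log2 difference of −0.9, against 11.57% higher at width-matched peaks. Listed sites that were themselves at least 70% masked, most of them at no peak, had other shares: 19.25% of 348 were higher at 3 d.p.i., 10.73% of 550 in Daxx-KO KLS cells and 92.9% of 915 in DKO cells. Those of them that touched a peak were higher in 69.23% of 65, 44.14% of 111 and 59.42% of 138 cases, so in Daxx-KO KLS cells they lay close to the 42.8% of sites at any peak.

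All listed sites at word 1 were higher in Daxx-KO cells. There were 19 of 19 in 3 d.p.i. LT-HSCs, with a median log2 difference of the group means (each plus 1) of 1.15 (range 0.57 to 1.9), and 43 of 43 in KLS cells, with a median of 1.65 (range 0.91 to 3.72). In DKO cells 8 of 11 (72.73%) were higher, with a median of 1.14 (range −2.06 to 1.84). That share was close to the 72.1% of all listed DKO sites, and at any copy of word 1 it was 7 of 11. At loci where a Daxx-WT list without a time label already had a peak, 16 of 16, 34 of 34 and 7 of 10 were higher. Without word 1, 55 of 69 sites, 68 of 109 and 152 of 241 were higher. Listed KLS sites at repeat-rich peaks with word 2 were few, and 5 of 8 were higher in Daxx-KO cells (median log2 difference 0.73). Over any copy, without the 70% rule, 67 of 386 sites at word 2 were higher (median −1.24), against 43 of 43 at word 1.

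**Figure D5:**
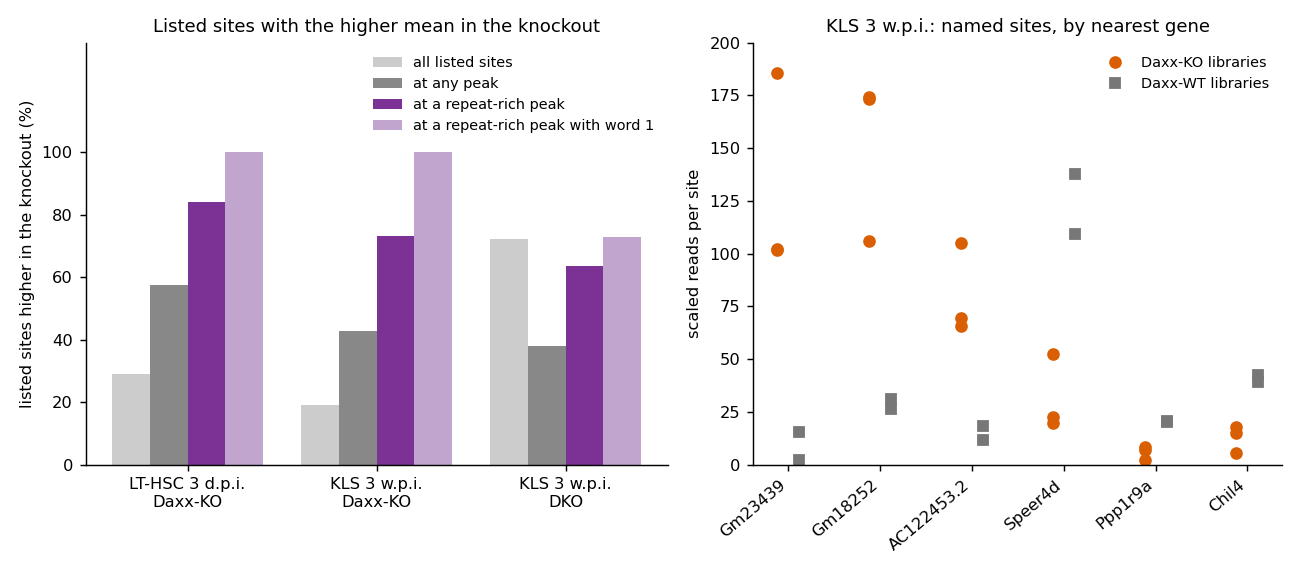
Left, share of listed sites with the higher mean in the knockout (vertical axis, percent) for all listed sites, sites at any peak, at a repeat-rich peak and at a repeat-rich peak with word 1, in the 3 tables. Right, scaled reads per site in each KLS library for the 3 sites at repeat-rich peaks that rose most and the 3 that fell most in Daxx-KO cells. They were chosen among sites whose libraries do not overlap between genotypes. Near Gm23439 the Daxx-KO points are 102.4, 185.5 and 101.6 and the Daxx-WT points 15.51 and 2.29.

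The 3 KLS sites with the largest rise in Daxx-KO cells all held word 1 and lay between genes. The site near Gm23439 (chr2:107955251-107956750) had 102.4, 185.5 and 101.6 scaled reads in Daxx-KO cells, against 15.51 and 2.29 in Daxx-WT cells. Its limma difference on the log2(value + 1) scale, used for all named sites, was 4.09 (SE 0.6223, limma adjusted p = 0.284). Named sites were chosen among those whose libraries did not overlap between genotypes, so the lack of overlap is no result. The site near Gm18252 (chr10:34698701-34700250) had 105.8, 174.1 and 173.1 against 31.02 and 26.36, and that near AC122453.2 (chr17:82378901-82380250) had 65.69, 105 and 69.61 against 11.86 and 18.34. The log2 differences of these sites were 2.32 (SE 0.3337) and 2.33 (SE 0.3448). The sites that fell most had no word 1. The strongest, in an intron near Speer4d (chr5:15636751-15638450), had 52.33, 22.74 and 19.75 in Daxx-KO against 109.5 and 137.6 in Daxx-WT cells, and the others lay in an intron of Ppp1r9a, a neuronal actin-binding protein, and near Chil4, a chitinase-like protein, with log2 differences of −1.77 and −1.73. Each of these 3 had a peak in 1 of the 11 lists.

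At 3 d.p.i. the recurrent locus near Gm22288 was among the sites that rose most. This locus had been named in part from peak lists of the same libraries, so the rise is not an independent result. Its site (chrX:50410051-50411200) had 96.35, 81.13 and 70.73 scaled reads in Daxx-KO LT-HSCs, against 9.01 and 33.76 in Daxx-WT (log2 difference 2.16, SE 0.4735, limma adjusted p = 0.301). The other sites that rose most lay in an exon near Gm49328 (chr12:18026251-18027400), with 69.74, 27.68 and 53.84 against 11.27 and 5.63, and in an intron 42.17 kb from Gm25795 (chrX:157256051-157257450), with 99.11, 83.99 and 87.62 against 14.65 and 24.38. Both were open in 1 list, and the latter held word 5. The sites that fell most lay near Gm13173 and in introns near Ica1, an islet autoantigen, and Nuggc, a nuclear GTPase of germinal centre B cells. Near Gm13173 (chr4:153153201-153154000) the values were 13.76, 8.59 and 14.78 in Daxx-KO against 49.58 and 32.82 in Daxx-WT cells.

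In DKO cells the strongest change at a repeat-rich peak was a loss. A pair of neighbouring sites near Gm13655 fell, at chr2:75639101-75640400 with 2.12 and 1.87 scaled reads in DKO against 55.02 and 58.13 in Daxx-WT cells, and at chr2:75637551-75638900 with 8.48 and 25.3 against 118.9 and 89.94. The log2 differences were −4.27 (SE 0.3591, limma adjusted p = 3.58e-27) and −2.73 (SE 0.3591, adjusted p = 8.01e-11). The equal SE reflects a variance shared over sites, so these p-values do not measure the spread at either site. The peaks under them were open in 6 and 9 of the 11 lists, and 20% and 30% of their sampled 50-base strings were unique. A site in an exon of Gm38312 (chr1:89096451-89097250) fell with 2.12 and 6.56 against 25.74 and 26.32. The sites that rose most lay near A830012C17Rik, Ceacam2, a cell adhesion molecule, and Gm15803, with limma log2 differences of 1.9 to 2.01. Near Ceacam2 (chr7:25541251-25542150) the values were 53.02 and 49.65 in DKO against 10.65 and 14.26 in Daxx-WT cells. None of these 6 sites held word 1.

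Adjusted over all windows that the tables report as tested, limma called none of the repeat-rich sites in the Daxx-KO tables. At 3 d.p.i. 0 of 88 passed (0% of all listed sites did), and in KLS cells 0 of 152 (0% of all listed sites). An unadjusted limma p below 0.05 was found at 84 of 88 and 148 of 152 sites. This was about as common over all listed sites, at 11454 of 11927 and 16749 of 17311. In DKO cells 188 of 252 passed, against 82.2% of all listed sites, with 121 higher (67.3% of all listed sites were called higher) and 67 lower (14.9%). Without either DKO library no site was called, and without either Daxx-WT library 95 or 154 were. The libraries had 4.21 to 16 reads per window of 600 bp on average. Groups had 2 or 3 libraries, and the tables had been filtered on these very libraries. The labels do not say that libraries came from separate mice, so these p-values measure at most the spread between libraries. In the DKO fit every named site had the same SE (0.3591). The DKO p-values and calls thus rest on a variance shared over the filtered sites, not on the spread at each site.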

How the data were processed

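The members, gene lists and tests were chosen with earlier results of these data known. The submitters' processing notes name CASAVA 1.8.4, cutadapt 1.13, STAR 2.5.3 and bedtools, with the build mm10 and no order. The peak caller's settings and the handling of reads with several positions are not given in the sources used here. The 6 deposited lists without a time label hold positions alone. In the other 5, conservative lists of reproducible peaks, the authors gave each peak a score, a fold enrichment as a ratio, and −log10 p and q values; an interval listed more than once was kept 1 time, at its highest fold. Of these values the fold alone was used, to rank peaks.

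The 3 deposited tables were made by the authors with diffReps 1.55.6 (windows of 600 bp moved by 50 bp, fragments of 100 bp, negative binomial test, windows with p below 0.0001 merged). Per the file headers, the signal of a library is its reads divided by a constant, and multiplying values under 20 reads by it gave a whole number, to within 0.15, in 100% of cases. The authors' own comparison columns (log2 fold changes, p-values and adjusted p-values) were not used.

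Masking was read from RefSeq GRCm38.p6 and start sites from GENCODE M21. Less masked peaks were weighted to the widths of repeat-rich peaks in 20 quantile bins (5 for sites). Populations were compared by two-sided exact sign-flip permutation tests, and sites by limma 3.58.1 (R 4.3.3) on log2(value + 1) with Benjamini-Hochberg adjustment over all 413247, 407030 and 446463 windows tested. The permutation tests took populations as independent, although their lists share loci. The limma and weighting steps were tested on simulated data. Wilson intervals are at 95% and cover counting error only. Uniqueness was judged from 10 strings of 50 bases per peak. Words of 16 letters were ranked by the number of loci that hold them, each after removing loci with an earlier word. Named were the 5 most masked loci in all 11 lists, the 5 loci in most lists among those recurrent in 1 genotype, and the 3 sites per table and direction with the largest difference whose libraries do not overlap. Scripts ran in Python 3.11.15 with pandas 2.3.3, pysam 0.24.0, matplotlib 3.10.9, numpy 2.4.6 and SciPy 1.17.1. Alternatives covered the masking limit, overlap, width bins, list length, sex chromosomes, populations or libraries left out, pseudocount, scaling and adjustment. Total read numbers are not known here.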

Additional observations from a re-analysis of the deposited data

Results flagged for a closer look

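The share of peaks that were repeat-rich moved in opposite directions in different populations. Daxx-KO minus Daxx-WT was 0.2185 percentage points in LT-HSCs, 0.0936 in 3 d.p.i. LT-HSCs and 0.1779 in KLS cells, against −0.2008 in CMPs and −0.1901 in GMPs. Each population had 1 list per genotype, and the difference between populations was not tested. The Daxx-KO list was the longer one in the first 3 populations and the shorter one in CMPs and GMPs. With lists cut to equal length, which was possible for 3 d.p.i. LT-HSCs and KLS cells, the differences became −0.0325 and 0.063 points.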

How the results depend on the processing

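Over the listed alternatives, 93 values kept their direction and their side of the test's threshold (counts: within 1.5 times), 21 moved and 4 reversed; of those added after the data were seen (members with unique 50-base strings, and members without word 1), 11 did so, 7 moved and 2 reversed. The mean difference in the repeat-rich share, near 0, reversed to −0.0204 points at a 50% masking limit, −0.0573 with unique members and −0.0433 without word 1, and ran from −0.0299 to 0.075 with 1 population left out. The Daxx-WT-alone excess reversed to −0.251 points with lists of equal length. The Daxx-KO-alone excess stayed positive but fell from 12.7 to 7.303 points at the 50% limit, 5.63 with unique members and 8.451 without word 1, and the Daxx-WT-alone excess rose from 4.612 to 8.15 at the 90% limit and 9.252 with matching on rank. The distal excess lay between 7.59 and 13.63 points.

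Counts of sites moved with the masking limit, by construction. At 50% and 90%, sites higher in the knockout were 198 and 33 for 3 d.p.i., 215 and 43 for KLS Daxx-KO and 457 and 45 for DKO cells, and lower ones 58 and 5, 140 and 9, and 412 and 23. With unique members, 17 were higher and 3 lower for 3 d.p.i., 20 and 18 for KLS Daxx-KO and 60 and 34 for DKO cells. Without word 1, 68 were higher in KLS Daxx-KO cells.

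Calls by limma, 0 in the Daxx-KO tables, became 84 and 148 with adjustment over the listed sites alone (11428 and 16711 of all listed sites). With a pseudocount of 5 they were 62 in KLS cells (4363 of all listed sites). With scaling to reads per window they were 1 at 3 d.p.i. (15 of all listed sites). In DKO cells they went from 188 to 96 with that scaling, and to between 0 and 154 with 1 library left out. A replicate block gave 32 calls in KLS Daxx-KO cells (2296 of all listed sites) and 194 in DKO cells (42605 of all listed sites). Same-numbered libraries did not deviate together at the listed sites (correlations 0.00844, 0.0517 and −0.00308). With so few libraries, and sites filtered on these very libraries, this cannot decide whether the numbers pair them. At 3 d.p.i. no paired analysis was possible because the column names carry no replicate number. The cause of these shifts was not tested. The quasi-likelihood count test was not run, since the constants are rounded and whole reads were checked below 20 reads only.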
